A study of Mus musculus with 10 samples.

Results

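The 80 genes described here encode proteins of the cytosolic ribosome. They were taken by symbol (Rpl, Rps or Rplp with a number) and by a level of 1 FPKM or more in at least 2 of 10 libraries, where FPKM is fragments per kilobase of transcript, scaled to the library total. Of 81 symbols that matched among 19025 genes, 80 passed: 46 of the large subunit, 31 of the small subunit and the 3 stalk genes Rplp0, Rplp1 and Rplp2. Rpl3l, a striated muscle paralog of Rpl3, did not pass, with 0 to 0.41 FPKM over the 10 libraries. Rpl39l passed at low levels, above 1 FPKM in 3 Th2 libraries and at 9.25 and 10.12 FPKM in ES cells.

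RNA-seq was run on mouse cells in 5 groups of 2 libraries each. The Th2 cultures were splenic CD4 T cells grown for 5 days with IL-2 at 15 ng/ml and IL-4 at 10 ng/ml, and the TSA-treated Th2 cultures had in addition 10 nM trichostatin A, an inhibitor of histone deacetylases, from day 2 for 3 days. Splenic CD4 T cells and splenic B220 B cells came from C57BL/6 mice of 6 to 8 weeks and were purified with magnetic beads to a labelled purity above 98%. Embryonic stem (ES) cells were the single C57BL/6 line B6N-22, kept with LIF on fibroblast feeders stopped with mitomycin C, so the ES libraries can hold feeder RNA. The labels do not say how many animals were pooled or whether replicates came from separate cultures, so p-values reflect only how much these libraries vary, and that variation may be technical.

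A ribosome holds 1 copy of most of its proteins, and cells therefore make these proteins in near-equal amounts. Most mammalian ribosomal protein mRNAs start with a C followed by a run of pyrimidines, the 5′ TOP motif, through which mTOR signalling and the RNA-binding protein Larp1 set their translation. Lymphocytes that leave quiescence enlarge and raise ribosome production. Ribosomal protein genes have also left many processed pseudogenes in the genome, and reads from such copies cannot always be told from reads of the parent gene.

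The annotated start of each gene was read in RefSeq (build GRCm38.p6), where 60 members matched with 71 starts. A C at the first transcribed base followed by at least 4 C or T bases stood at 18.3% of member starts (13 of 71), against 2.51% of all 32851 starts. Such a run began within 5 bases of 43.7% of member starts, against 18.3% of all. In the 300 bases from 250 before to 50 after the start, on both strands, the ETS core CCGGAA was found at 49.3% of member starts against 14.9% of all, the YY1 core AAGATGG at 16.9% against 6.34%, the E-box CACGTG at 11.3% against 7.15%, and TATAAA at 9.86% against 13.6%. These are matches of letters and show no binding.

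The windows below run from 40 bases before to 20 bases from the start, on the strand of the gene, and capitals mark the unbroken run of C and T that covers the first transcribed base. The first set shows members with a pyrimidine run at the start whose values stood out in the TSA comparison or carried much of the family's summed level.
Rplp2, chr7:141447611-141447670, plus strand: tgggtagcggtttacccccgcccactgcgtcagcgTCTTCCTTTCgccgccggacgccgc
Rps10, chr17:27635225-27635284, minus strand: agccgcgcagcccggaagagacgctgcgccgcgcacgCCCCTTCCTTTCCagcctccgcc
Rps27, chr3:90213629-90213688, minus strand: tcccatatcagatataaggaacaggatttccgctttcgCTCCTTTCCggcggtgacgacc
Rps21, chr2:180257339-180257398, plus strand: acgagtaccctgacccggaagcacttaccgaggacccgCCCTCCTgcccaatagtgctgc
Rpl38, chr11:114668540-114668599, plus strand: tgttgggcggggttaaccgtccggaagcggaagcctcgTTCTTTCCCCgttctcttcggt
Rps18, chr17:33955646-33955705, minus strand: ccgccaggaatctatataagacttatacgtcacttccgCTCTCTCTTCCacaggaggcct
The second set shows members discussed for departing from the family and genes of the paralog pairs. None of them has a C at the annotated start followed by at least 4 C or T bases, though Rpl39 has a run of 5 that covers that base.
Rplp0, chr5:115559427-115559486, plus strand: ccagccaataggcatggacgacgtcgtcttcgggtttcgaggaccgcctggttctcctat
Rpl7l1, chr17:46782637-46782696, minus strand: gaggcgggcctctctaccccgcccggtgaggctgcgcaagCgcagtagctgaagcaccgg
Rps27l, chr9:66946046-66946105, plus strand: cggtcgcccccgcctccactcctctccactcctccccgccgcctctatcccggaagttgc
Rpl39, chrX:37085203-37085262, minus strand: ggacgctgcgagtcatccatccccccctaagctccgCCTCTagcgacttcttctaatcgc
Rpl39l, chr16:10170188-10170247, plus strand: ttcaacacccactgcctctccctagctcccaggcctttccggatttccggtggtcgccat
Rpl22, chr4:152324396-152324455, plus strand: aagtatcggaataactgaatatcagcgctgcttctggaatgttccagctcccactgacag
Rpl22l1, chr3:28805468-28805527, plus strand: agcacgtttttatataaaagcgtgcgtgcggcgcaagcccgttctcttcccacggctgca
Rps27 has the run at its annotated start and its paralog Rps27l does not. Annotated starts were not checked against measured ones, so lack of the run at that base does not show that an mRNA lacks a TOP motif. Among the 13 members with the run the median log2 fold change of TSA-treated over untreated Th2 cultures was 0.52, against 0.39 among the 47 matched members without it. This contrast of medians was not tested. The 47 include Rpl7a, Rpl27a and Rpl34, with runs of 21, 20 and 20 C and T bases over the start that do not meet the rule of a C followed by at least 4 more.

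The family took 21.8% and 22.2% of the summed FPKM in the TSA-treated Th2 libraries and 16.8% and 18.5% in the untreated Th2 libraries. The share was 10.3% in both CD4 T libraries, 8.44% and 8.46% in B cells, and 12% in both ES libraries. TSA-treated cultures thus lay above untreated ones, with means of 22.0 ± 0.284% and 17.7 ± 1.15% (SD, n = 2 each), a difference of 4.35 points, and their libraries did not overlap. CD4 T cells lay above B cells (10.3% against 8.45%) and below ES cells. No test was run on these shares, since they sum over the chosen members.

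**Figure D1:**
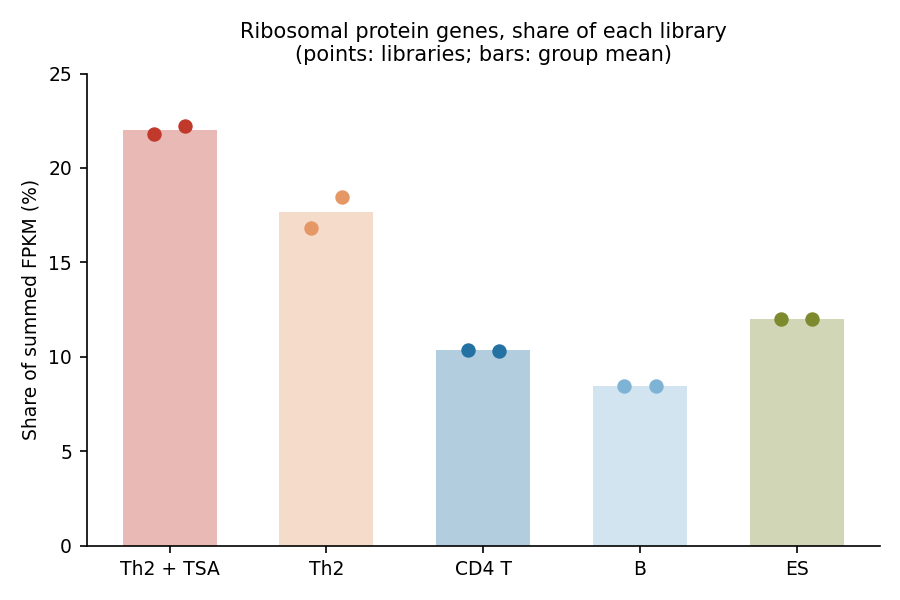
Share of the summed FPKM taken by the 80 ribosomal protein genes, in percent, for each of 10 libraries (points) with the mean of the 2 libraries (bars). The TSA-treated Th2 libraries, at 21.8% and 22.2%, lie above the untreated Th2 libraries, at 16.8% and 18.5%, and the 6 other libraries lie between 8.44% and 12%.

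The members with the highest FPKM differed between the Th2 groups and the others. In TSA-treated cultures they were Rpl41, which encodes a very short basic protein (4866 FPKM), Rps18 (4031) and Rplp1 (3954). In untreated Th2 cultures they were Rplp1 (3951), Rpl41 (3609) and Rps18 (2633). CD4 T cells were led by Rps27 (1334), Rplp2 (1296) and Rpl8 (1262), B cells by Rps27 (1128), with Rps21 (957) also among their 3 highest, and ES cells by Rpl8 (1845), with Rplp2 (1511) also among theirs. The median member stood at 1004 FPKM in TSA-treated cultures and 785 in untreated ones, at 404 in CD4 T cells, 321 in B cells and 504 in ES cells.

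The order of members by FPKM was close within the 4 Th2 libraries (Spearman's rho 0.954 to 0.990 over 80 members) and within the 6 others (0.869 to 0.999). Between a Th2 library and any other it was 0.474 to 0.575. The deposited files are of 2 kinds along the same line. Among 1449 symbols listed on several rows, all rows of a symbol were identical for 1326 in the Th2 files and for 51 in the others. Differences between Th2 cultures and CD4 T cells therefore cannot be told apart from the way the files were made. In bulk RNA, fewer cells of a type and less RNA per cell cannot be told apart either.

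The sums of Th2, ES, B and T cell markers were highest in groups of those labels, but CD4 T libraries also held B cell and myeloid marker RNA. The 5 T cell markers summed to 1621 and 1628 FPKM in CD4 T cells and 23.7 and 22.95 in B cells. The 5 Th2 markers summed to 157 and 162 FPKM in TSA-treated cultures, 297 and 325 in untreated ones and 32.6 and 32.1 in CD4 T cells, and the 5 ES markers to at most 1.79 in the other groups and 2005 and 2001 in ES cells. B cell markers summed to 13.9 and 38.2 in TSA-treated cultures and 4.33 and 6.29 in untreated ones, against 222 and 226 in CD4 T cells and 3932 and 3930 in B cells. Myeloid markers summed to 341 and 339 in CD4 T cells, 95.7 and 96.1 in B cells and 2.85 and 3.51 in untreated Th2 cultures. Fibroblast markers summed to 526 and 532 in ES cells. The part of other cell types in the CD4 T values of the family was not tested. The 2 libraries of CD4 T cells, of B cells and of ES cells differed by about the noise of sampling, with an SD of the log2 ratio of 0.0417 to 0.0458 against 0.307 to 0.322 in the Th2 groups, so each of these pairs was counted as 1 sample.

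TSA-treated Th2 cultures were compared with untreated Th2 cultures; per the labels the inhibitor is the difference between them. Of the 80 members, 77 had a positive log2 fold change, 2 a negative one, and Rpl26 was listed at 0 in all 4 libraries. Over all genes 53.2% were positive and 43.0% negative. The median was 0.40, against 0.02 over all 12907 genes tested, and the quartiles of the members were 0.29 and 0.50. In 69 members both treated libraries lay above both untreated ones, where 36.7% of all genes did so, and in 1 member they lay below, where 27.1% of all genes did.

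Few single members passed the test. With limma on log2(FPKM + 1) and Benjamini-Hochberg adjustment over all genes, 4 members rose and 0 fell, against 9.26% of all genes called higher and 4.14% called lower. The share of members called was thus below the background, while their median lay above that of all genes. Without adjustment 27 members were higher and 1 lower at p below 0.05. No share of all genes at an unadjusted p is given here, so such counts have no background beside them. When any 1 of the 4 Th2 libraries was left out, the median stayed between 0.30 and 0.49. Such a fit has 1 library on a side and fewer residual degrees of freedom. Its calls therefore cannot show whether single members hold. After quantile normalization 67 members were positive and 13 negative, with a median of 0.19.

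The 4 members called were Rpl17, Rpl24, Rpl37 and Rps21. Rpl24, a large subunit protein at the face between the subunits, had 495 and 542 FPKM in treated cultures, against 318 and 342 in untreated ones (log2 fold change 0.65, SE 0.10, limma adjusted p = 0.0464). The treated libraries lay above the untreated ones without overlap. Rps21, of the small subunit, had 876 and 843 FPKM in treated and 539 and 517 in untreated cultures (0.70, SE 0.11, adjusted p = 0.0477), again without overlap. Rpl37 had 579 and 575 against 336 and 385 FPKM (0.68, adjusted p = 0.0496), and Rpl17 76.7 and 76.5 against 53.6 and 56.5 (0.47, adjusted p = 0.0421). These adjusted p-values sit close to the threshold. Other members with larger fold changes, such as Rplp2 (0.76, adjusted p = 0.196) and Rps10 (0.72, adjusted p = 0.164), did not pass. The fit did not pair the libraries by the experiment number in their titles.

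The gain in share was spread over many members. Rps18, a protein of the head of the small subunit, contributed 0.268 percentage points, with 3768 and 4295 FPKM in treated cultures against 2422 and 2844 in untreated ones. Rpl38, known in mice for the translation of Hox mRNAs in the embryo, contributed 0.244 points (3638 and 3492 FPKM against 2120 and 2476). Rpl41 contributed 0.223 points and Rps20 0.217. Each of these 4 genes had both treated libraries above both untreated ones. The shares of Rplp1, Rplp0, Rps29 and Rpl7l1 were lower in treated cultures, by differences of -0.0561, -0.0291, -0.0070 and -0.0031 points. Of the 5 B cell markers 1 was called higher in treated cultures, and Pax5, listed at 0 in the untreated ones, had 0.87 and 0.88 FPKM. Of the 6 myeloid markers 1 was called higher, Itgam, with 2.08 and 2.02 FPKM in treated against 0.14 and 0.04 in untreated cultures. Cd68 was lower (-0.33) and not called, and the other myeloid markers stayed below 1 FPKM in these cultures. Of the 5 Th2 markers 3 were called lower, and of the 5 T cell markers 1, Lat, with 176 and 163 against 295 and 283 FPKM. Of the T cell markers not called, Cd4 (0.37) and Cd3g (0.31) were positive, and Cd3d (-0.12) and Cd3e (-0.37) negative. Over all genes 9.26% were called higher and 4.14% lower. The part of these marker differences in the family's difference was not tested.

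**Figure D2:**
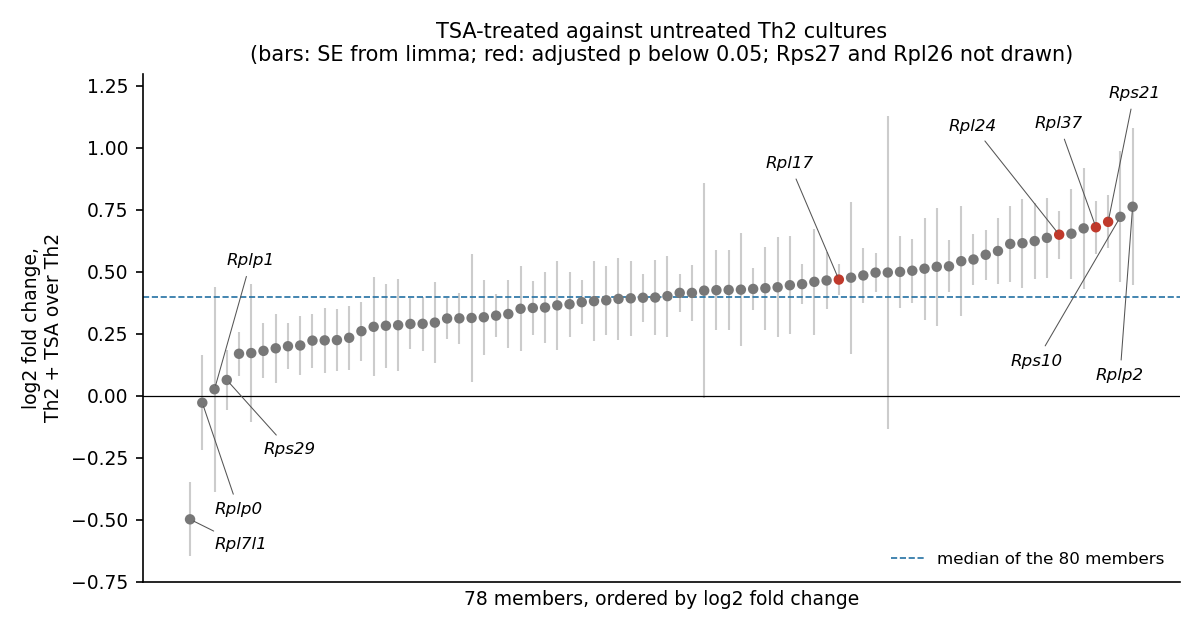
Log2 fold change of TSA-treated over untreated Th2 cultures for 78 of the 80 members in order of size, on the log2(FPKM + 1) scale, with the SE from limma (bars) and calls at an adjusted p below 0.05 in red. The dashed line is the median of 0.40, Rps27 (3.77, with 1 low untreated library) and Rpl26 (listed at 0) are not drawn, and Rpl7l1, Rplp0 and Rplp1 sit at the low end.

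Members were then set against the family by subtracting, in each library, the median log2 level of the members. On this scale 4 members rose and 3 fell in TSA-treated cultures, against 7.31% and 25.6% of all genes. In this fit the spread was taken wholly from the trend over all genes, so a member's own scatter did not enter its SE.

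The stalk genes differed in direction relative to the family, by calls that were lost with a pseudocount of 0.1 (limma adjusted p = 0.102 for Rplp2, 0.0921 for Rplp0 and 0.247 for Rplp1). Rplp0, Rplp1 and Rplp2 build the acidic stalk that recruits elongation factors. Rplp2 had 1827 and 2658 FPKM in treated cultures against 1100 and 1533 in untreated ones, and rose against the family by 0.41 (SE 0.13, limma adjusted p = 0.0104). Rplp0 had 1371 and 1640 against 1367 and 1707 FPKM and fell against the family by 0.38 (SE 0.15, adjusted p = 0.0396). Rplp1 had 3211 and 4697 against 2909 and 4993 FPKM and fell against it by 0.32 (SE 0.13, adjusted p = 0.0335). Rplp1 was high in replicate 2 of both groups, and its libraries overlapped, as did those of Rplp0.

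Among the small subunit genes, Rps10 rose against the family by 0.37 (limma adjusted p = 0.0323), with 2071 and 2744 FPKM in treated cultures against 1239 and 1685 in untreated ones. Rpl7l1, a nucleolar paralog of Rpl7, went the other way, with 30.2 and 24.9 FPKM in treated cultures against 42.4 and 36.1 in untreated ones, a fall against the family of 0.85 (SE 0.23, adjusted p = 0.00205). It was the only member of the 80 with both treated libraries below both untreated ones. Against all genes, without centring on the family, its fold change was -0.50 (SE 0.15, adjusted p = 0.123).

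Rps27, a zinc finger protein of the small subunit, was called higher by 3.42, and this rests on 1 library. It had 1235 and 1245 FPKM in treated cultures, against 8.00 and 914 in untreated ones, and without untreated replicate 1 its relative change was 0.22 (adjusted p = 0.538). With a pseudocount of 0.1 Rpl7l1 alone of the 7 calls relative to the family held (-0.86, adjusted p = 0.0146), and none of the 7 held in all 4 fits that leave out a library. Rpl7l1 was lost without treated replicate 2 (-0.66, adjusted p = 0.358) and without untreated replicate 1 (-0.61, adjusted p = 0.13), and so was Rplp2 (0.20 and 0.30). Rps10 was lost without either of these or without untreated replicate 2. Rplp1 was lost without treated replicate 1 or untreated replicate 2, and Rplp0 without any of the 4.

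Th2 cultures were compared with the CD4 T cells of the spleen, the cell type from which they were grown. The CD4 T libraries count as 1 sample here, so the fit takes the spread of that side from the Th2 groups, and its p-values assume that CD4 T cells vary like them. Of 79 members tested, 46 rose and 10 fell, against 16.9% and 38.1% of all genes, with a median log2 fold change of 0.90 against -0.28 over all genes. After quantile normalization, which moved the median of all genes to 0.02, the split was 29 higher and 16 lower with a member median of 0.17, and 2 members called before had the opposite sign. With a Th2 library left out, 22 members (without replicate 1) or 21 (without replicate 2) were called higher, and 29 with either treated library left out, which enters the fit only through the spread. Without a Th2 replicate, 1 sample stands on each side and the spread comes from the treated cultures. No share of all genes called is given for these alternative fits, so their counts have no background beside them.

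The largest increase was in a gene that stood far below the family in the 6 files of the other kind. Rps23, a small subunit protein at the decoding site, had 763 and 852 FPKM in Th2 cultures against 18.9 and 17.98 in CD4 T cells (log2 fold change 5.38, SE 0.11, limma adjusted p = 0.000689). It had 19.9 and 19.4 FPKM in B cells and 52.6 and 51.0 in ES cells, so all 6 files of that kind were low. Rpl41 (3.63), Rpl27 (3.56), Rps27l (2.82), Rps4x (2.66), Rpl39 (2.45), Rps28 (2.37), Rps18 (2.34) and Rplp0 (2.07) were also among the members that rose most, each with an adjusted p of 0.00942 or less. Of these, Rpl27 (-3.91) and Rps27l (-3.43) also stood far below the family median in CD4 T cells on the log2 scale. Rpl41 (-0.49), Rps4x (-0.09), Rpl39 (0.21), Rps28 (-0.29), Rps18 (0.35) and Rplp0 (-0.16) stood near it.

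The decreases included several of the deepest departures from the family. Rpl21 had 3.33 and 2.96 FPKM in Th2 cultures against 198 and 196 in CD4 T cells (-5.58, SE 0.16, adjusted p = 0.00113). Rpl30 (-4.36), Rpl17 (-3.17), Rpl7a (-3.16), Rps12 (-2.62), Rps2 (-2.45), Rpl23a (-1.53), Rps21 (-1.22), Rpl31 (-1.11) and Rps15a (-0.52) also fell. Over all 80 members both Th2 libraries lay above both CD4 T libraries in 63, where 31% of all genes did so, and below them in 15, where 57.7% did. Rps15a had -0.26 after median-ratio scaling (adjusted p = 0.229). Rpl26, whose human homolog binds the mRNA of p53, was listed at 0 in all 4 Th2 files and at 460 FPKM in CD4 T cells, and was given no fold change.

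Near-identical pseudogenes were counted for each member. Annotated mouse pseudogene transcripts (13399, GENCODE M21) were searched for copies of each coding sequence at 95% identity over 80% of its length, and 15 members had 10 or more. Rpl21 had the most with 56, followed by Rpl7a with 32 and by Rpl29 and Rps2 with 26 each. Of the 10 members called lower in Th2 cultures 8 were among these 15. In the 15, 6 were called higher and 8 lower, and the median family-relative difference was -2.48. In the other 64 tested, 40 were called higher and 2 lower, and the median over the 65 members was 0.03. Rps23, with 11 copies, went against this pattern, and Rpl30 with 12 lay lower than genes with more. Over all 80 members the rank correlation of copy number with the difference was weak, at -0.18, and for TSA-treated against untreated cultures, within 1 kind of file, it was -0.15. How reads that match several loci were placed is not given in the sources used here, and the part of such reads in the difference was not tested.

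**Figure D3:**
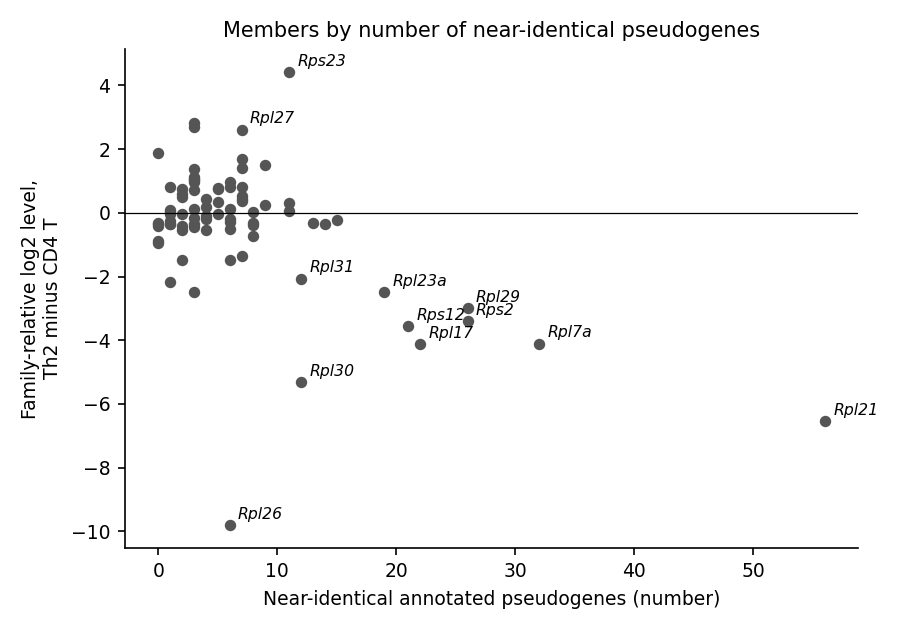
Family-relative log2 level in Th2 cultures minus CD4 T cells (vertical axis) against the number of near-identical annotated pseudogenes (horizontal axis) for the 80 members. Members with 19 or more copies all lie below 0, down to Rpl21 with 56 copies, while Rps23 lies at the top and Rpl26, listed at 0 in the Th2 files, at the bottom.

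Across the 5 groups 19 members departed from the family by 2 or more on the log2 scale, that is, their level relative to the family median differed that much between the highest and the lowest group. In 12 of them both Th2 groups lay below the 3 others, in 4 above, and 3 were mixed. As plain ratios to the family median, with no pseudocount, 11 lay below, since Rpl39l was then mixed. The median member ranged over 0.986 across the 5 groups and over 0.294 across CD4 T, B and ES cells. In CD4 T, B and ES cells, which share a kind of file, 60 of 80 members stayed within 0.5. Rpl26 is among the 19 only because it is listed at 0 in the Th2 files, and its range is set by the pseudocount. Of the other 18, the largest ranges over the 5 groups were those of Rpl21 (6.54), Rpl30 (5.30), Rpl7a (4.92), Rps2 (4.53) and Rps23 (4.42). Of the 19, Rpl31 had the smallest range (2.06), and Rps4x (1.83) and Rpl39 (1.75) lay just outside.

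**Figure D4:**
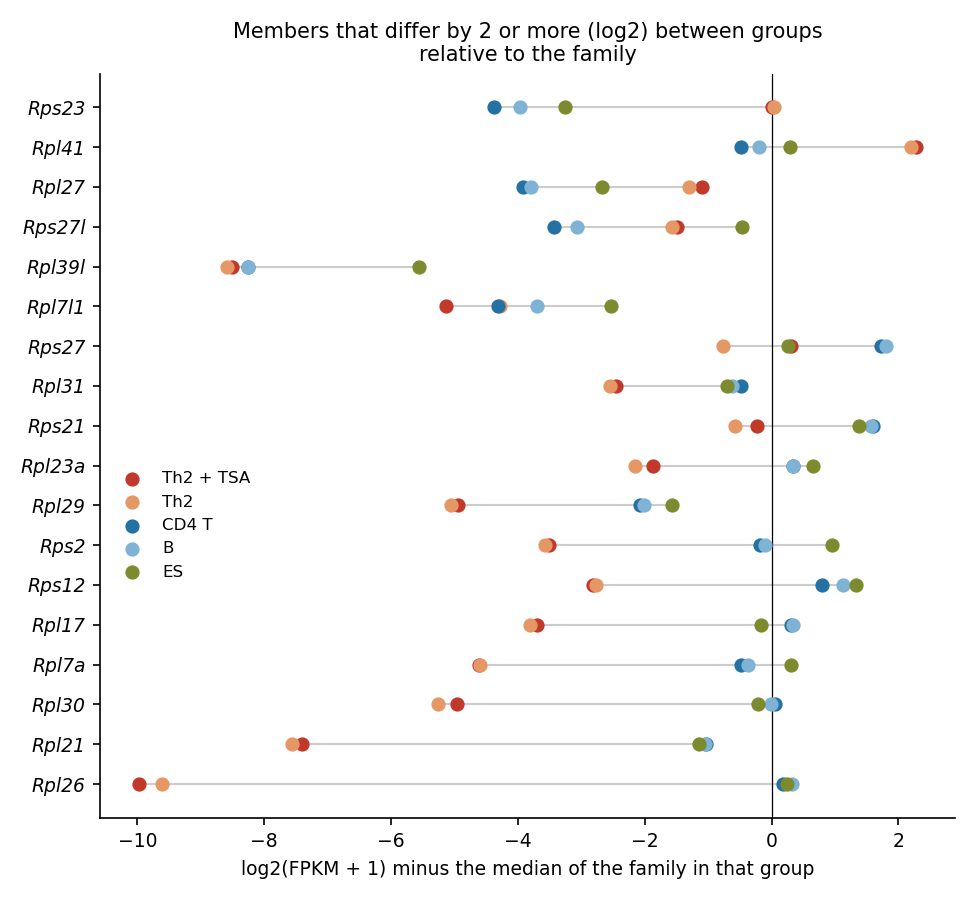
Level of 18 of the 19 departing members relative to the family, as log2(FPKM + 1) minus the family median of the group, with 1 point for each of the 5 groups. Rps27l and Rpl39l spread widely among CD4 T, B and ES cells, while for Rpl21, Rpl30 and Rpl7a the points of the 2 Th2 groups lie together, far left of the other 3, as for Rpl26, whose Th2 points stand for a listed 0 placed by the pseudocount.

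Departures among CD4 T, B and ES cells did not involve the 2 kinds of file. Only Rps27l (range 2.96) and Rpl39l (2.70) reached 2 there, and Rpl7l1 (1.78), Rps27 (1.55), Rpl27 (1.25), Rps2 (1.14) and Rps23 (1.13) reached 1. Rps27l, Rpl39l and Rpl7l1 are paralogs of other ribosomal protein genes, and Rps27 is the partner of Rps27l.

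Rps27l, a paralog of Rps27 known as a target of p53, had 344 and 372 FPKM in TSA-treated Th2 cultures and 255.2 and 275 in untreated ones. It had 36.4 and 37.0 FPKM in CD4 T cells and 38.8 and 35.8 in B cells, against 360 and 369 in ES cells. CD4 T and B cells overlapped, as did TSA-treated cultures and ES cells, and the untreated cultures lay between. Among CD4 T, B and ES cells Rps27 itself ran the other way. It had 1346 and 1321 FPKM in CD4 T cells and 1126 and 1129 in B cells against 600 and 601 in ES cells. In TSA-treated cultures Rps27 had 1235 and 1245 FPKM, and in untreated ones 8.00 and 914. The ratio of Rps27l to Rps27 was 0.278 and 0.299 in TSA-treated cultures and 0.301 in untreated replicate 2, while untreated replicate 1, with Rps27 at 8.00 FPKM, gave 31.9. It was 0.0270 and 0.0280 in CD4 T cells, 0.0344 and 0.0317 in B cells, and 0.600 and 0.614 in ES cells.

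Rpl39l, a paralog of Rpl39 known from male germ cells, had 2.45 and 1.05 FPKM in TSA-treated cultures and 1.60 and 0.51 in untreated ones. It had 0.28 and 0.38 FPKM in CD4 T cells and 0.08 and 0.02 in B cells, against 9.25 and 10.12 in ES cells. The ES libraries lay above all others, and the 2 Th2 groups overlapped. Rpl7l1 had 19.5 and 19.2 FPKM in CD4 T cells and 23.7 and 23.8 in B cells, against 86.3 and 85.7 in ES cells, which again lay above all other libraries.

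Rpl22l1 lay below the family median by a similar amount in all 5 groups, at -2.13 to -1.80 on the log2 scale (range 0.33). Rpl22, known in mice for the development of alpha-beta T cells, and Rpl22l1 are a pair of which the first restrains the second. Rpl22l1 had 250.7 and 206 FPKM in TSA-treated and 209 and 189 in untreated cultures, 106 in both CD4 T libraries, 86.3 and 85.6 in B cells and 146 and 141 in ES cells. The ratio of Rpl22l1 to Rpl22 was 1.08 and 0.814 in TSA-treated cultures against 1.29 and 1.003 in untreated ones, which overlap. It was 0.903 and 0.933 in CD4 T cells, 0.776 and 0.779 in B cells and 0.647 and 0.632 in ES cells.

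**Figure D5:**
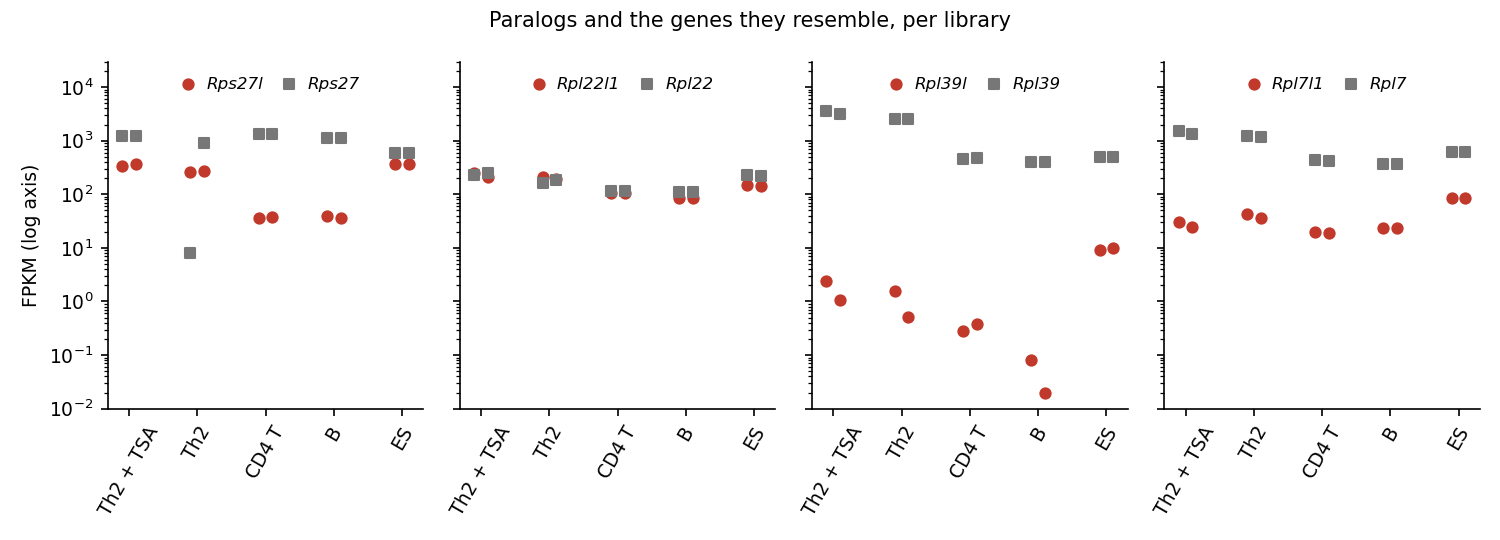
FPKM on a log axis for 4 paralogs (red circles) and the genes they resemble (grey squares) in each of the 10 libraries. Rps27l lies at 344 and 372 FPKM in TSA-treated Th2 cultures, at 35.8 to 38.8 FPKM in CD4 T and B cells and at 360 and 369 FPKM in ES cells, and Rps27 stands at 8.00 FPKM in untreated Th2 replicate 1.

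CD4 T and B cells were each set against ES cells, with 1 sample on each side and so with no test. A member counted as different at a log2 difference of 1 or more where the higher group reached 5 FPKM. In CD4 T cells 1 member lay higher and 8 lower than in ES cells, against 19.3% and 23.3% of all genes, and the median was -0.38 against -0.16 over all genes. Rps27 lay higher (1.15). Rps27l (-3.28), Rpl39l (-3.01), Rpl7l1 (-2.10), Rpl27 (-1.56), Rps2 (-1.45), Rps23 (-1.44), Rpl7a (-1.11) and Rpl41 (-1.09) lay lower. In all, 71 of 80 members lay below ES cells, where 54.9% of all genes did, and 52 members did after quantile normalization.

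In B cells 0 members lay higher and 17 lower than in ES cells, against 17.5% and 25% of all genes, with a median of -0.70 against -0.30. All 8 of the members lower in CD4 T cells were among the 17, with Rpl39l (-3.35) and Rps27l (-3.26) the furthest. Rps27, at 0.91, was the 1 member with a positive difference, where 41.4% of all genes had one. The fibroblast markers summed to 526 and 532 FPKM in ES cells and below 1 in CD4 T and B cells, and the part of feeder RNA in these differences was not tested.

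CD4 T cells were last set against B cells. By the size rule 0 members lay higher and 0 lower in CD4 T cells than in B cells, against 6.63% and 4.39% of all genes. The median was 0.29 against 0.05 over all genes, and 76 of 80 members were positive, where 57.2% of all genes were. The stalk genes Rplp1 (0.73) and Rplp0 (0.69) had the largest differences, with 1213 and 1206 FPKM of Rplp1 in CD4 T cells against 721 and 732 in B cells. Rps16 (0.69), Rpl12 (0.67) and Rps14 (0.58) came next. Rpl7l1 was lower in CD4 T cells by 0.28 on the log2 scale.

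Some ribosomal proteins have symbols outside the rule. Rpsa, Fau, Gnb2l1 and Rpl36al had a median log2 fold change of 0.49 for TSA-treated over untreated cultures, with 0 called in either direction by limma at an adjusted p below 0.05. Over all genes 9.26% were called higher and 4.14% lower in that comparison. In Th2 cultures 2 of these 4 rose and 0 fell against CD4 T cells, where 16.9% and 38.1% of all genes did. Those that rose were Rpl36al (3.11) and Rpsa (2.01), between groups that also differ in the kind of file.

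Genes of the wider translation machinery were read from lists. Of 20 translation genes whose mRNAs carry TOP motifs, 1 rose, the initiation factor gene Eif3h (0.44, adjusted p = 0.0477), and 1 fell, the helicase gene Eif4a2 (-0.57, adjusted p = 0.036). Their median was 0.16, and over all genes 9.26% were called higher and 4.14% lower. Between Th2 cultures and CD4 T cells 9 of the 20 rose and 1 fell, where 16.9% and 38.1% of all genes did. By the size rule 10 lay lower in CD4 T cells than in ES cells and 13 lower in B cells than in ES cells, where 23.3% and 25% of all genes did. Of 14 genes of mTOR signalling and its control of TOP mRNAs, 0 rose and 1 fell under TSA, Rheb, the GTPase that activates mTOR complex 1 (23.9 and 22.8 FPKM against 35.1 and 32.5, -0.51, adjusted p = 0.0439). In Th2 cultures 2 of 13 rose and 7 fell against CD4 T cells, where 16.9% and 38.1% of all genes did, so the count that rose is near the background. Eif4ebp1, a repressor of cap-dependent translation, was among those that rose (3.77, adjusted p = 0.0128). Myc was listed at 0 in all 4 Th2 files and not compared with CD4 T cells.

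The 76 mitochondrial ribosomal protein genes, which build a separate ribosome, had a median of 0.05 under TSA, with 3 called higher and 0 lower, where 9.26% and 4.14% of all genes were. Those called were Mrpl13 (0.998, adjusted p = 0.0306), Mrps11 (0.47, adjusted p = 0.0381) and Mrps33 (0.43, adjusted p = 0.0445). Th2 cultures had 34 of the 76 higher and 6 lower than CD4 T cells, where 16.9% and 38.1% of all genes were. By the size rule 33 lay lower in CD4 T cells and 36 lower in B cells than in ES cells, where 23.3% and 25% of all genes did.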

How the data were processed

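The 10 mouse RNA-seq libraries in 5 groups were grouped and numbered by their titles. The deposited tables give FPKM per transcript row, which the authors made with Bowtie 0.12.8, TopHat 1.3.2 and Cufflinks 2.0.2 on mm10, per the submitters' processing notes. Strand use and the treatment of multi-mapping reads were not given in the sources used here. FPKM hold no read counts, so the depth of the libraries is unknown. Each table had 21035 rows and 19025 genes, and the highest row stood for a gene. Rows summed to 405438 to 521872 FPKM and 9652 to 11456 genes reached 1 FPKM per library.

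The libraries of ES, B and CD4 T cells were averaged within each group, which left 7 samples. Genes at 1 FPKM or more in at least 2 libraries (12907) were fitted on log2(FPKM + 1) with R 4.3.3 and limma 3.58.1, two-sided, with 2 residual degrees of freedom, Benjamini-Hochberg adjustment and calls below 0.05. Fold changes on this scale understate those of low genes. Genes at 0 in all files of either kind were left out of Th2 against CD4 T cells, which left 12367. The script was tested on simulated data. Pseudogene copies were found with BLAST 2.17.0.

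Named genes were those departing from the family by 2 or more, the paralogs and their partners, the stalk genes, the highest members per group, the largest calls or differences of each comparison, members nearest the level threshold, and up to 4 genes per other list. Members and lists were chosen with earlier results of these data known. Rpl10l and Rps4l were not analysed here. Some genes that the rule names are not reported here. Alternatives covered the pseudocount, filters, the row used per gene, scaling, separate libraries, a replicate block and leaving out each library.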

Additional observations from a re-analysis of the deposited data

How the results depend on the processing

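For TSA-treated against untreated Th2 cultures, the 4 members called higher became 1 with a pseudocount of 0.1 and 0 with no filter on low values. They became 64 (and 1 lower) with 10 separate libraries, which counts the near-duplicate pairs as replicates. With a Th2 library left out, 1 library stood on a side, and calls are not counted for this comparison. Relative to the family, 4 higher and 3 lower became 0 and 1 with a pseudocount of 0.1 and 15 higher with 10 separate libraries, and ranged over 1 to 4 higher and 1 to 1 lower with a library left out. The titles number the Th2 libraries by experiment in both groups, but do not say whether the same number marks a shared experiment. The main fit did not use these numbers. Over 2 pairs the deviations of same-numbered Th2 libraries correlated at 0.65 over 7761 genes. With the replicate block the calls were 66 higher and 1 lower over 10 libraries and 7 higher and 1 lower over the 4 Th2 libraries, and relative to the family 17 and 5, and 16 and 5. The cause of these moves was not tested. No share of all genes called is given for the alternative fits in this section, so their counts have no background beside them.

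For Th2 against CD4 T cells, 46 higher and 10 lower became 29 and 16 after quantile normalization, and 21 to 29 and 7 to 9 with a library left out. Among members with fewer than 10 near-identical pseudogenes, an alternative chosen after seeing the data, 2 were lower. By a log2 difference of 2, CD4 T cells against ES cells had 0 members higher and 3 lower, and B cells against ES cells had 2 lower. With quantile normalization or median-ratio scaling 1 member was higher in B than in ES cells. Leaving out a library gave 1 to 1 higher and 8 to 8 lower, 0 to 0 and 17 to 17, and 0 to 0 in both directions for CD4 T against B cells, and 17 to 19 members departing from the family.

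Without Rplp1, Rpl41 and Rps18 the shares were 19.2% in TSA-treated and 15.3% in untreated Th2 cultures, 9.79% in CD4 T, 8.05% in B and 11.3% in ES cells. Without the 19 departing members, chosen after seeing the data, they were 19.7%, 15.97%, 8.47%, 6.83% and 9.72%, and with only members of fewer than 10 pseudogenes 20.9% in TSA-treated cultures, 9.05% in CD4 T, 7.34% in B and 10.2% in ES cells. Summed rows gave 9.81%, 7.92% and 11.4% in CD4 T, B and ES cells and mean rows 10.4%, 8.51% and 12%, and a denominator of tested genes 10.3% (CD4 T) and 12% (ES). The order of the groups was the same in each.

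Of 687 values for named members under these alternatives, 577 kept their direction and their side of the threshold, whether called or not, 77 fell short of it, 32 newly passed it, and 1 changed sign: Rpl39 under TSA, 0.40, became -0.14 after quantile normalization (limma adjusted p = 0.616). Of 55 medians 6 moved. Over all members, quantile normalization changed the sign of 10 under TSA, 0 of them called, and of 17 between Th2 cultures and CD4 T cells, 2 of them called.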
